A study of Mus musculus with 6 samples.

Results

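The genes described here are those of the motile cilium, the beating cell projection that moves mucus along the airways. They are a list of 40 names of genes of the ciliated airway cell. The rule used no measured value, but the list was drawn up with earlier results of these data known. Of these, 37 were measured among 22180 genes: 36 under the listed symbol and Dnai2 as Dnaic2, a synonym in the RefSeq gene table. Dnah3 and Dnah12 have no named probe set here, and Ccdc39 shares its probe set with Ttc14. Each gene is represented by the probe set with the highest mean over all arrays.

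The lungs of 6 CD1 mice, an outbred strain, were compared at an age of 10 weeks. The 3 intact mice were sham controls. The other 3, called preconditioned, had 90 minutes of ventilation with low pressures and were sampled 1 week later. The labels name no transgene, allele or drug in either group, and no sorting of cells. Each array received biotin-labelled material made from 100 ng of total lung RNA, with 1 array a mouse. All values below are log2 expression values, so that 1 unit is a 2-fold difference. Where 3 values are given for a group, they belong to replicates 1, 2 and 3 in that order.

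Airway ciliated cells carry bundles of motile cilia, each built on an axoneme, a ring of microtubule doublets around a central pair. Outer and inner dynein arms drive the beat, and radial spokes, the central apparatus and the nexin-dynein links coordinate it. Multicilin (Mcidas) starts the multiciliated cell programme, and Foxj1 and the RFX factors switch on the genes of the axoneme. Loss of many of these genes causes primary ciliary dyskinesia, in which mucus is not cleared.

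RFX factors bind a DNA element called the X-box, so promoters of the cilium genes were searched for it and for the forkhead core that Foxj1 family proteins recognise. The RefSeq promoter table (GRCm38.p6, windows from 250 bases before to 50 bases after a start) held 35 windows of 32 of the 37 genes. Foxj1, Rsph1, Rsph4a, Tppp3 and Armc4 had no entry. A loose X-box pattern, GTTNCC followed after any 3 bases by GNNAC, was found on either strand in 6 of the 35 windows (17.1%), against 2.22% of all 32851 windows and 2.32% of the windows of protein-coding genes. Its half-site GTTGCC, which lies inside some of these X-boxes, was in 20 windows (57.1%) of 19 genes, against 12.5% of all windows. The forkhead core TGTTTAC was in 2 windows, those of Ak7 and Sntn (5.71%, against 3.65% of all). The X-box matches lay in Enkur, Hydin, Spag16, Tekt1, Tekt4 and Zmynd10, with 2 in the window of Tekt4 and 1 in each other. They are shown here, 5′ to 3′ on the strand of the gene and with the X-box in capitals, because these 6 genes belong to a group whose values moved together over the mice, as described below.
Enkur: tagcaactGTTTCCTTAGCAACcacgtggt
Hydin: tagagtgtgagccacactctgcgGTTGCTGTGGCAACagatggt
Spag16: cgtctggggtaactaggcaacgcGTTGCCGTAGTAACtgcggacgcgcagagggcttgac
Tekt1: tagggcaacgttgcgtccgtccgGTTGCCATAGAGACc
Tekt4, before the start: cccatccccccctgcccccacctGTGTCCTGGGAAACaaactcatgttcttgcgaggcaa
Tekt4, after the start: tatacaatGTTCCTTAGGCAACcaggaacc
Zmynd10: gctccctcGTTTCCATGGCGACgacgactc
On GRCm38.p6 these stretches are chr2:21205356-21205385, minus strand (Enkur), chr8:110266933-110266976, plus strand (Hydin), chr1:69826844-69826903, plus strand (Spag16), chr11:72361883-72361920, minus strand (Tekt1), chr17:25471407-25471466, plus strand (Tekt4, before the start), chr17:25471582-25471611, plus strand (Tekt4, after the start) and chr9:107547296-107547325, plus strand (Zmynd10). The X-box begins 103 bases before the annotated start in Spag16, 21 before it in Hydin, 15 in Tekt1 and 12 in Enkur, and after the start in Zmynd10. In Tekt4 the first match begins 160 bases before the start and the second after it. In Hydin and for both matches in Tekt4 the pattern lies on the opposite strand. Base composition was not matched between these windows and the others, and a match of letters is not evidence of binding. Any tie between X-box matches and the shared movement over the mice was not tested.

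Over the whole series, array medians lay between 5.92 and 5.96 and correlations between arrays, across genes, between 0.978 and 0.993. Of the 37 cilium genes, 34 had a mean above the median of all genes (5.95). The exceptions were Spag6, Armc4 and Mcidas. Levels of different probe sets are not on a common scale, so this is a coarse check that a signal was present. As a contrast, 17 measured genes of sperm, whose tail is also built on an axoneme, had a median level of 4.62, and the sperm tail scaffold gene Akap4 lay at 3.85 to 4.02 over the mice.

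The question for these genes is whether transcripts of the ciliated cell differed between the groups 1 week after low-pressure ventilation. By limma with Benjamini-Hochberg adjustment, 0 of the 37 cilium genes passed the threshold of 0.05 (lowest adjusted p = 0.219, for Ccdc40). Over all 22180 genes 21 passed (0.0947%), of which 8 were higher (0.0361%) and 13 lower (0.0586%) in preconditioned mice. That count of 21 was 1228 without intact replicate 1 and 2 to 4 without any other 1 of the mice, and the count of cilium genes stayed at 0. At an unadjusted p under 0.05 there was 1 cilium gene, Ccdc40, higher in preconditioned mice (2.70% of the 37, against 7.53% of all genes), and none was lower (11.6% of all genes). In either direction 19.1% of all genes lay under that p. Ccdc40 was also the 1 gene whose groups did not overlap in the higher direction (11.7% of all genes), with none in the lower direction (13% of all genes, and 24.7% in either direction). The mean was higher in preconditioned mice for 35 of 37 genes, against 52.7% of all genes, with a median difference of 0.19 and a range of -0.15 to 0.53. The median over all genes was 0.013.

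The excess of small positive differences depended on single mice. Without preconditioned replicate 2 the median difference was -0.072 and 12 of 37 genes had the higher mean in preconditioned mice, and without intact replicate 2 the values were 0.0036 and 19 genes. Without preconditioned replicate 1 it was 0.42, and without intact replicate 1 it was 0.29. At an unadjusted p under 0.05 there were 11 of the 37 genes without preconditioned replicate 1 (17.7% of all genes), 2 without intact replicate 3 (11.7% of all genes) and 0 without preconditioned replicate 2 (16.4% of all genes). The cilium genes vary together, so these 37 differences are not independent. Intervals were wide. Of the 37 95% intervals, 36 spanned 0, 29 reached beyond a 1.5-fold higher level and 7 beyond 2-fold, so they include differences of such size. Lower ends reached -0.97 for Dynlrb2 and -0.89 for Rsph4a, so lower levels in preconditioned mice are included as well. In RNA of bulk lung, a change in the number of ciliated cells and a change in RNA per ciliated cell cannot be told apart.

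**Figure D1:**
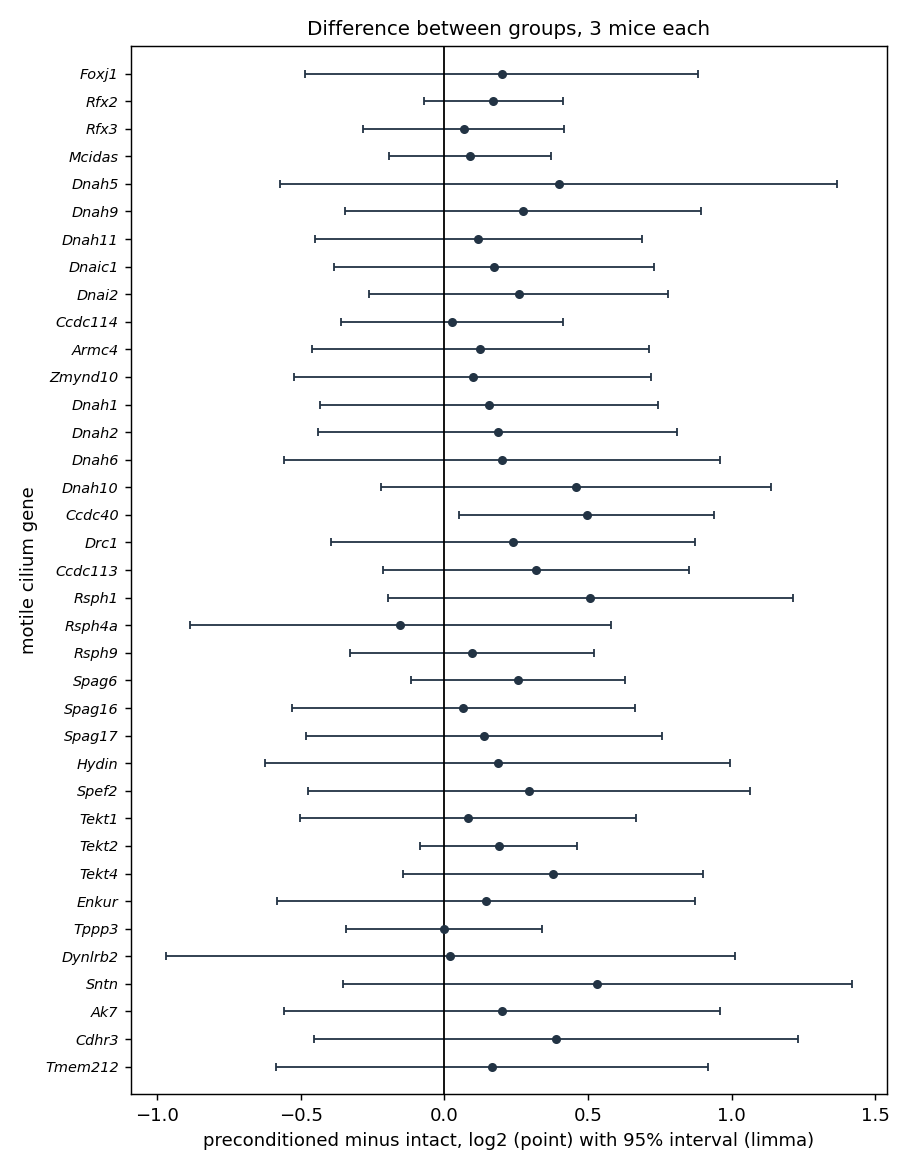
Preconditioned minus intact, on the log2 scale, for the 37 motile cilium genes (points), with 95% intervals from limma (bars; 3 mice a group). The points lie between -0.15 and 0.53, and 36 of the 37 intervals span 0, with Ccdc40 as the exception.

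Of the transcriptional regulators, all 4 were measured. Foxj1, the forkhead factor of motile cilia (probe set 17272339), was at 8.07, 7.41 and 8.17 in the intact mice and 7.55, 8.68 and 8.01 in the preconditioned mice. It was low in intact replicate 2 and preconditioned replicate 1 and high in preconditioned replicate 2, and the groups overlapped, with a difference of 0.20 (SE 0.30, 95% interval -0.48 to 0.88). Rfx3, an X-box binding factor, was at 7.49, 7.14 and 7.35 in the intact mice and 7.23, 7.70 and 7.26 in the preconditioned mice, in the same order at its 2 ends but with a narrower range (0.56). Mcidas, the starter of the programme, was at 6.01, 5.79 and 5.86 in the intact mice and 5.77, 6.17 and 6.01 in the preconditioned mice. Its highest mouse was again preconditioned replicate 2 and its lowest ones preconditioned replicate 1 and intact replicate 2. Rfx2, an RFX factor that is not restricted to ciliated cells, was at 7.35, 7.37 and 7.61 in the intact mice and 7.53, 7.70 and 7.61 in the preconditioned mice. Its range was 0.35, with intact replicates 1 and 2 lowest, and its difference was 0.17 (SE 0.11, 95% interval -0.073 to 0.41).

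The outer dynein arm is the main motor of the beat. Dnah5, its heavy chain along the whole axoneme (probe set 17310688), was at 7.91, 6.98 and 7.78 in the intact mice and 7.04, 8.81 and 7.998 in the preconditioned mice. The spread from the lowest to the highest mouse was 3.57-fold, the widest among the 37 genes. All 3 preconditioned values lay above the lowest intact one and 2 above the highest, and the groups overlapped, with a difference of 0.40 (SE 0.42, 95% interval -0.57 to 1.37). Dnah9, another outer arm heavy chain, was at 7.18, 6.73 and 7.28 in the intact mice and 6.80, 7.92 and 7.29 in the preconditioned mice. The intermediate chain gene Dnaic1 was at 6.82, 6.29 and 6.97 in the intact mice and 6.46, 7.32 and 6.82 in the preconditioned mice, and its partner Dnai2 at 6.38, 6.06 and 6.43 in the intact mice and 6.11, 7.06 and 6.47 in the preconditioned mice. In each of these genes intact replicate 2 and preconditioned replicate 1 were the 2 lowest mice and preconditioned replicate 2 the highest. Dnah11, the heavy chain of the proximal outer arm, ranged over 6.56 to 7.52 with the same mice at its ends. Differences for Dnah9, Dnah11, Dnaic1 and Dnai2 lay between 0.12 and 0.27.

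Outer arms are held by a docking complex and are assembled beforehand in the cytoplasm. The docking genes Ccdc114 and Armc4 ranged over 6.12 to 6.68 and 4.68 to 5.72, and the assembly factor gene Zmynd10 over 6.19 to 7.33. In all 3 genes preconditioned replicate 2 was highest, and preconditioned replicate 1 and intact replicate 2 were lowest. The differences were 0.025, 0.13 and 0.10.

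Inner dynein arms shape the bend of the cilium. Dnah10, an inner arm heavy chain, was at 6.87, 6.16 and 6.68 in the intact mice and 6.49, 7.66 and 6.94 in the preconditioned mice. The highest mouse exceeded the lowest 2.84-fold, and the difference was 0.46 (SE 0.29, 95% interval -0.22 to 1.14). Dnah6 was at 8.39, 7.62 and 7.96 in the intact mice and 7.51, 8.88 and 8.18 in the preconditioned mice, and Dnah2 at 6.60, 5.78 and 6.44 in the intact mice and 6.05, 6.97 and 6.35 in the preconditioned mice. Both are inner arm heavy chains, and both again placed intact replicate 2 and preconditioned replicate 1 lowest and preconditioned replicate 2 highest. Dnah1 ranged over 5.84 to 6.89 in the same order at its ends.

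Ccdc40 forms, with Ccdc39, the molecular ruler that sets the repeat of dynein arms and spokes along the doublet. It was the gene closest to a difference between groups (probe set 17258964), with values of 7.09, 6.52 and 6.99 in the intact mice and 7.22, 7.72 and 7.16 in the preconditioned mice. The lowest preconditioned mouse (7.16) lay just above the highest intact mouse (7.09), which gave a difference of 0.50 (SE 0.19, 95% interval 0.052 to 0.94) and an unadjusted limma p of 0.0326 (adjusted p = 0.219). In preconditioned replicate 1, where 34 of the 37 cilium genes lay below their own mean, Ccdc40 lay above it. Drc1, a subunit of the nexin-dynein link, was at 7.16, 6.36 and 6.96 in the intact mice and 6.56, 7.56 and 7.06 in the preconditioned mice, and the coiled-coil ciliary gene Ccdc113 at 6.36, 6.06 and 6.37 in the intact mice and 6.08, 7.09 and 6.58 in the preconditioned mice. Both had their lowest values in intact replicate 2 and preconditioned replicate 1, unlike Ccdc40, and their differences were 0.24 and 0.32.

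Radial spokes carry signals from the central pair to the dynein arms. The spoke head gene Rsph1 was at 8.44, 7.77 and 7.90 in the intact mice and 7.97, 9.23 and 8.44 in the preconditioned mice. Intact replicate 1 lay above preconditioned replicates 1 and 3, so the groups overlapped, and its difference was 0.51 (SE 0.31, 95% interval -0.20 to 1.21). Rsph4a, another spoke head gene, ranged over 7.32 to 8.74 and was 1 of the 2 genes with a lower mean in preconditioned mice (-0.15, interval -0.89 to 0.58). Rsph9 ranged over 6.34 to 7.01, with a difference of 0.095. The 2 extreme values of Rsph4a were both in preconditioned mice, replicates 1 and 2, which differed by 1.42.

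The central apparatus surrounds the central pair of microtubules. Spef2, one of its proteins, was at 7.40, 6.52 and 7.22 in the intact mice and 6.67, 7.97 and 7.38 in the preconditioned mice, with intact replicate 2 lowest and a 2.73-fold spread. Hydin, the large protein of a central pair projection, ranged over 7.15 to 8.55, Spag17 over 6.75 to 7.89 and Spag16 over 5.91 to 6.99, with preconditioned replicate 2 highest in each. Spag6, at a low level, did not have its highest value in that mouse. It was at 4.43, 4.76 and 4.25 in the intact mice and 4.96, 4.75 and 4.50 in the preconditioned mice. Its highest value was in preconditioned replicate 1 and its lowest in intact replicate 3. Its second probe set lay at 4.24 to 4.57, with the same mice highest and lowest. The means of these probe sets, 4.61 and 4.39, were near or below the median level of the sperm genes (4.62). At so low a level an order of mice may not show, which was not tested. In the mouse Spag6 is the copy on chromosome 2, and RefSeq lists Spag6 as a synonym of a second gene, Spag6l on chromosome 16. Spag6l, named after its values were seen, was at 6.69, 6.68 and 6.86 in the intact mice and 6.54, 7.38 and 7.10 in the preconditioned mice, where preconditioned replicate 2 was highest and preconditioned replicate 1 lowest. The near-identical copies may share signal, which was not tested. Preconditioned replicate 1 was the highest mouse for Spag6 and the lowest for Spag6l.

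Tektins and other proteins line the doublet microtubules from inside. Tekt4 was at 6.79, 6.49 and 6.83 in the intact mice and 6.68, 7.63 and 6.94 in the preconditioned mice, with preconditioned replicate 2 highest and a difference of 0.38 (SE 0.23, 95% interval -0.14 to 0.90). Tekt1 ranged over 6.44 to 7.36 and Enkur, a protein of the doublet lumen, over 5.85 to 7.12, both with the mice at the ends in the same places. Tekt2 did not share this order. Its values were 6.71, 6.91 and 7.01 in the intact mice and 6.91, 7.07 and 7.21 in the preconditioned mice, with a range of 0.51 and its highest value in preconditioned replicate 3.

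The remaining genes mark the ciliated cell or its cilia. Cdhr3, a cadherin of the ciliated cell surface known as a rhinovirus C receptor, was at 9.41, 8.46 and 9.10 in the intact mice and 8.64, 10.11 and 9.38 in the preconditioned mice. Sntn, which encodes a protein of the ciliary tip, was at 7.80, 7.10 and 7.80 in the intact mice and 7.21, 8.87 and 8.22 in the preconditioned mice. Its difference of 0.53 (SE 0.39, 95% interval -0.35 to 1.42) was the largest of the 37, and its groups overlapped. Dynlrb2, a dynein light chain gene, was at 9.35, 8.32 and 8.89 in the intact mice and 8.08, 9.86 and 8.68 in the preconditioned mice. Its groups had nearly the same mean (8.85 ± 0.52 and 8.87 ± 0.91; SD, n = 3), although single mice spanned 3.44-fold. Tppp3, a tubulin-binding protein gene also expressed outside ciliated cells, was at 10.39, 10.31 and 10.64 in the intact mice and 10.19, 10.70 and 10.45 in the preconditioned mice, with a range of 0.51. Ak7, an adenylate kinase, ranged over 7.58 to 9.01 and Tmem212 over 7.88 to 9.17.

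The main feature of these genes was thus a spread between mice that they shared and that crossed the groups. The highest of the 6 mice was preconditioned replicate 2 for 35 of the 37 genes (94.6%, against 18.7% of all genes). In 32 genes this mouse was highest while intact replicate 2 and preconditioned replicate 1 were the 2 lowest (86.5%, against 3.00% of all genes). The 5 genes outside this order were Rfx2, Ccdc40, Rsph1, Spag6 and Tekt2. Spag6 had a low level (mean 4.61), at which an order may not show. Its 2 probe sets had the same mice highest and lowest. The order was noticed in the values and is a description of these mice. The mean deviation of the 37 genes from their own averages was 0.10, -0.43 and 0.018 in the intact mice and -0.38, 0.61 and 0.073 in the preconditioned mice. Preconditioned replicate 2 exceeded preconditioned replicate 1 by a median of 1.03 (2.05-fold), with a range over genes from -0.22 to 1.78, while the median over all genes was -0.027.

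**Figure D2:**
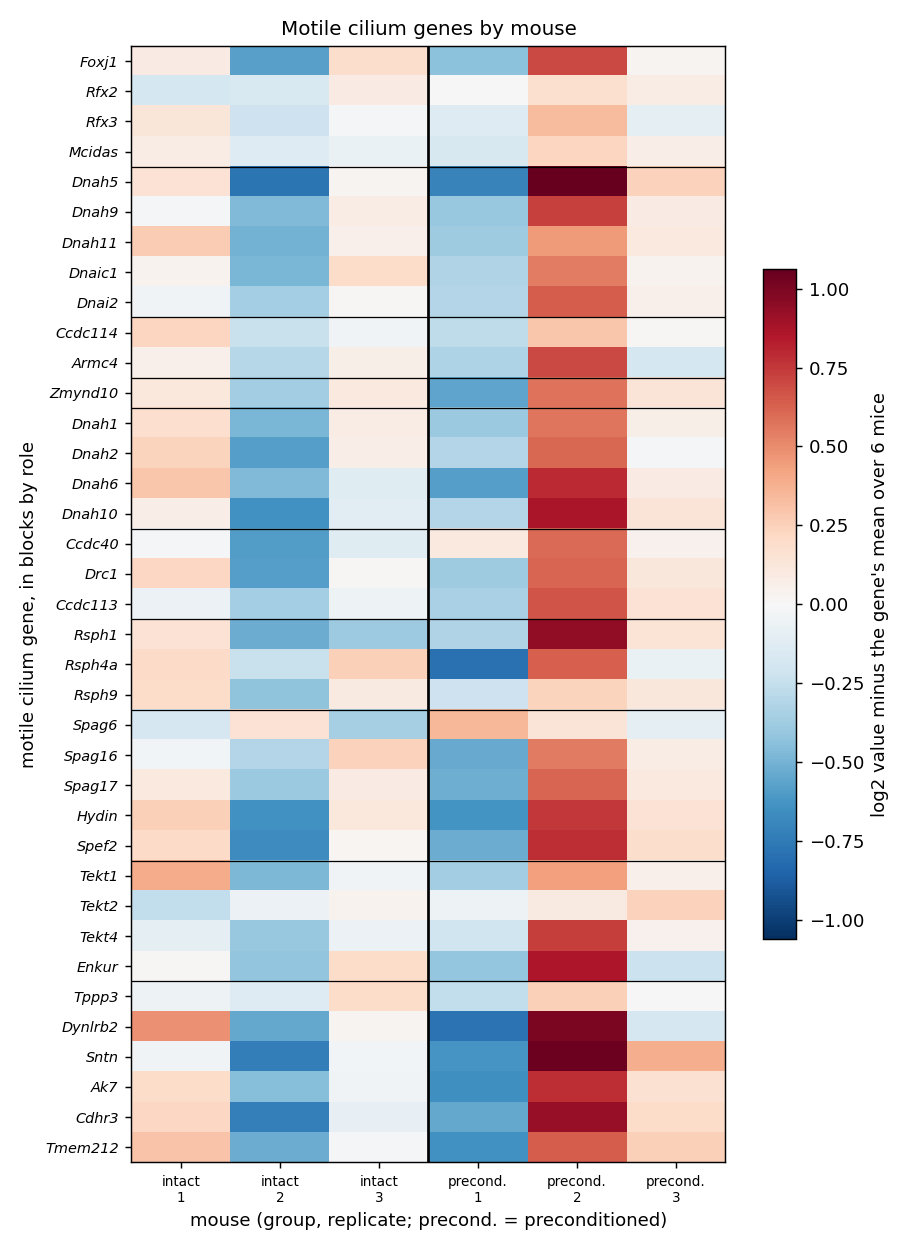
Deviation of each of the 37 motile cilium genes (rows, in blocks by role) from its own mean over the 6 mice (columns), as a log2 value from blue (below) to red (above). Preconditioned replicate 2 is above the mean for all 37 genes, intact replicate 2 below it for 36 and preconditioned replicate 1 below it for 34.

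The residual standard deviation within groups had a median of 0.45 over the cilium genes and 0.14 over all genes, and 2.03% of all genes had one as large as the cilium median. The distance from the lowest to the highest mouse was above 1 for 27 of the 37 genes (73.0%), against 5.91% of all genes, and it lay between 1.28-fold for Rfx2 and 3.57-fold for Dnah5. These shares are over genes of every level, while 34 of the 37 cilium genes lay above the median level. Genes of like level were not compared. The spread was present in both groups, with a median SD of 0.33 in intact and 0.54 in preconditioned mice (n = 3 each). The regulators Rfx2, Rfx3 and Mcidas, with Tppp3, Tekt2 and Ccdc114, were among the 10 genes that spanned less than 1. Probe sets of the same genes that were not used spanned little. The second ones of Dnah2, Hydin, Spag17 and Tekt2 ranged by 0.51, 0.46, 0.31 and 0.26, at lower means of 5.77, 5.46, 3.64 and 5.27. None had preconditioned replicate 2 highest. The highest mouse was preconditioned replicate 1 for Dnah2, preconditioned replicate 3 for Tekt2, and intact replicate 1 for Hydin and, by a small margin, Spag17. The spread of Dnah2, Hydin and Spag17, and their order of mice, thus rest on 1 of their 2 probe sets.

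**Figure D3:**
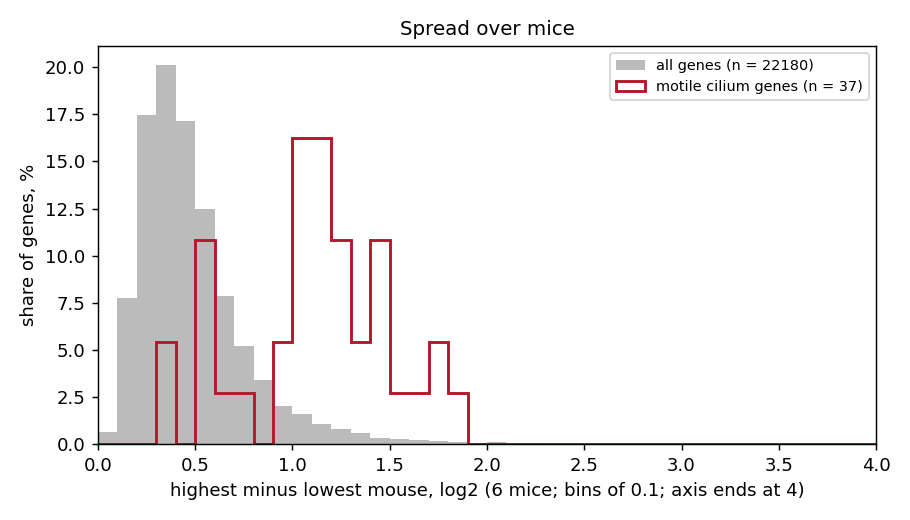
Share of genes (percent) by the distance between the highest and the lowest of the 6 mice (log2, bins of 0.1), for all 22180 genes (grey) and the 37 motile cilium genes (red line). Most cilium genes lie above 1, where 5.91% of all genes lie, and 12 genes of the whole set lie beyond the end of the axis at 4.

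Other genes of the pathway, from lists that contain none of the 37, were described in the same way. Of 59 measured axoneme genes outside the 37, none passed the adjusted threshold, 1 was higher at an unadjusted p under 0.05 (7.53% of all genes), and the median difference was 0.17. The order described above was found in 42 of the 59 (71.2%, against 3.00% of all genes). Their mean deviations were 0.065, -0.36 and 0.038 in the intact mice and -0.36, 0.56 and 0.052 in the preconditioned mice. Among the widest spreads, chosen by size, were Cfap43, a cilia and flagella associated protein gene, at 7.89, 7.28 and 7.99 in the intact mice and 7.47, 8.94 and 8.04 in the preconditioned mice, and Spa17 at 7.67, 7.003 and 7.44 in the intact mice and 7.10, 8.67 and 7.69 in the preconditioned mice. Both were more than 3-fold higher in preconditioned replicate 2 than in intact replicate 2. The genes with the largest moderated t in this list had differences of 0.22 for the spoke protein gene Ropn1l, -0.38 for the radial spoke gene Rsph3a, and 0.36 and 0.14 for Cfap45 and Efhc2, genes of the doublet lumen.

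Other genes act earlier, in multiciliation, centriole amplification and dynein assembly. The order was found in 5 of the 24 measured (20.8%, against 3.00% of all genes). Mean deviations of this list were 0.067, -0.087 and 0.033 in the intact mice and -0.18, 0.18 and -0.018 in the preconditioned mice. Myb, a transcription factor of multiciliated cell differentiation, was at 7.83, 7.33 and 7.70 in the intact mice and 7.45, 8.45 and 8.07 in the preconditioned mice, with preconditioned replicate 2 highest and intact replicate 2 lowest. Trp73, a p53 family factor of the same programme, ranged over 6.09 to 6.57. None of the 24 passed the adjusted threshold, and 2 were lower at an unadjusted p under 0.05 (8.33%, against 11.6% of all genes). The genes with the largest moderated t had differences of -0.47 for E2f4, a partner of multicilin with wide roles in the cell cycle, -0.29 for the assembly factor gene Dnaaf5 and -0.23 for E2f5, a close relative of E2f4. The list median was -0.0030.

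Intraflagellar transport moves cargo in motile and primary cilia, so its genes are expressed by many lung cells. Of 30 measured, none passed the adjusted threshold and 1 was higher at an unadjusted p under 0.05 (7.53% of all genes). The largest moderated t was that of Traf3ip1, a subunit of the transport particle, with a difference of 0.50 (SE 0.18, 95% interval 0.088 to 0.90). The order was found in 8 genes (26.7%, against 3.00% of all genes), and none spanned more than 1 over the mice. Mean deviations were 0.024, -0.10 and 0.018 in the intact mice and -0.17, 0.18 and 0.047 in the preconditioned mice. The differences were -0.28 for Ttc26 and 0.20 for Hspb11, further subunits of the particle, and 0.19 for the motor gene Kif17.

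**Figure D4:**
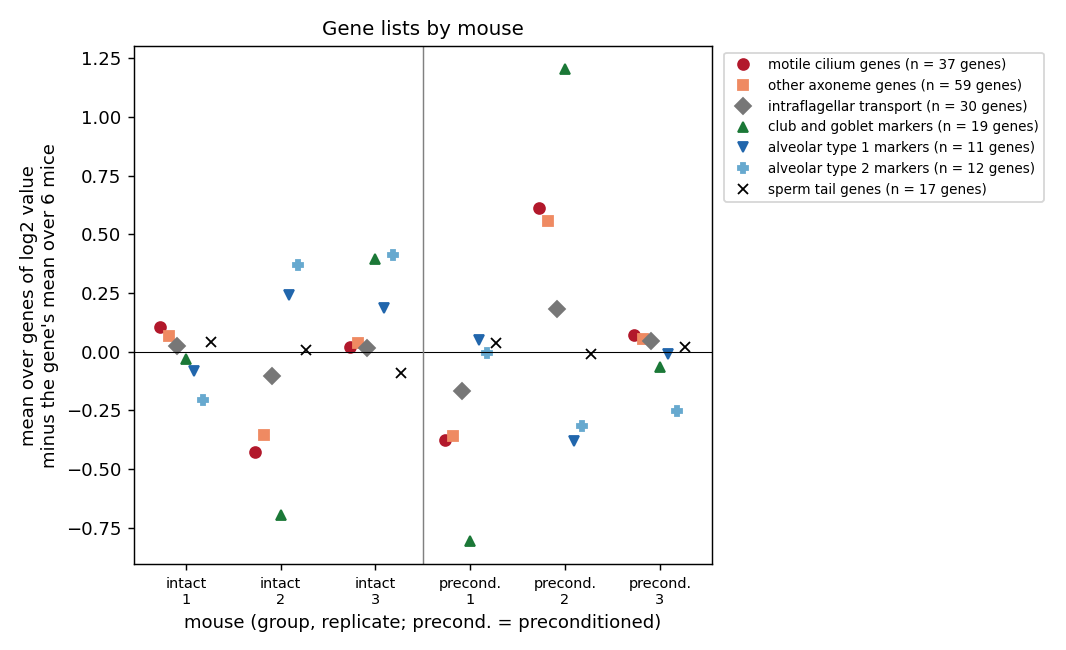
Mean deviation of 7 gene lists from their own averages over the 6 mice (log2, vertical axis) by mouse (horizontal axis), with 1 symbol a list and mouse. Cilium genes, other axoneme genes and club and goblet markers are lowest in intact replicate 2 and preconditioned replicate 1 and highest in preconditioned replicate 2. Intraflagellar transport genes have the same mice at their ends, with smaller deviations (-0.10, -0.17 and 0.18 in these mice). Alveolar type 1 and type 2 markers are at their lowest in preconditioned replicate 2.

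Markers of other cells of the airway varied in part with the cilium genes. The 19 measured club and goblet cell markers, genes of the secretory cells that neighbour ciliated cells, had mean deviations of -0.031, -0.70 and 0.39 in the intact mice and -0.81, 1.20 and -0.063 in the preconditioned mice, and 9 of the 19 (47.4%, against 3.00% of all genes) followed the order above. Their mean level was 8.42 to 9.51 in intact and 8.31 to 10.32 in preconditioned mice. Secreted proteins of the mucosa, chosen after their values were seen, spread widely. Bpifb1 was at 9.0, 5.51 and 10.17 in the intact mice and 5.75, 12.18 and 8.57 in the preconditioned mice. The mucin gene Muc5b was at 7.51, 5.16 and 8.19 in the intact mice and 5.17, 9.86 and 6.87 in the preconditioned mice. Each was low in the same 2 mice as the cilium genes and highest in preconditioned replicate 2. Scgb3a1, a secretoglobin gene, was at 8.84, 6.02 and 10.44 in the intact mice and 6.14, 11.51 and 8.47 in the preconditioned mice. Bpifa1 was at 4.73, 3.74 and 7.08 in the intact mice and 4.74, 11.59 and 6.84 in the preconditioned mice, with the highest value again in preconditioned replicate 2. The spread was narrow for the club cell genes Scgb1a1 (13.50 to 13.60) and Cyp2f2 (12.66 to 13.06), both highest in intact replicate 3. Scgb3a2 lay at 10.70 to 11.84, with preconditioned replicate 2 highest. Of the 19, 0 passed the adjusted threshold and 2 were lower at an unadjusted p under 0.05 (10.5%, against 11.6% of all genes).

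Other structures of the conducting airway are given by the same count. The order was found in 0 of 7 basal cell markers, with a mean level of 4.63 to 4.83 in intact and 4.82 to 5.25 in preconditioned mice, and the basal cell genes Trp63 and Krt14 lay at 4.59 to 4.91 and 4.24 to 4.89. In cartilage genes the order was found in 0 of 13, at 5.27 to 5.36 in intact and 5.30 to 5.41 in preconditioned mice. Col2a1, the collagen of cartilage, lay at 5.52 to 6.004. The basal and cartilage lists had median levels of 4.80 and 4.94, near the 4.62 of the sperm genes. At so low a level an order of mice may not show, which limits those counts of 0 and was not tested. At an unadjusted limma p under 0.05, 2 of the 7 basal markers were higher in preconditioned mice (28.6%) and 1 was lower (14.3%). Of the 13 cartilage genes, 2 were higher (15.4%) and 1 was lower (7.69%). The shares of all genes were 7.53% higher and 11.6% lower. Smooth muscle genes followed the order in 0 of 10, at 8.34 to 8.72 in intact and 8.25 to 8.57 in preconditioned mice. Of 11 genes common to epithelia, 2 followed it (18.2%, against 3.00% of all genes), with a mean level of 7.69 to 7.91 in intact and 7.57 to 8.01 in preconditioned mice. Preconditioned replicate 2 was highest in 7 of the 11 (63.6%, against 18.7% of all genes).

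Alveolar markers had their lowest mean deviation in preconditioned replicate 2, the mouse with the highest cilium values. For alveolar type 1 cells the 11 markers were at -0.083, 0.24 and 0.18 in the intact mice and 0.048, -0.38 and -0.0087 in the preconditioned mice (mean level 10.11 to 10.44 in intact and 9.82 to 10.25 in preconditioned mice), with Ager, a membrane protein of these cells, at 11.42, 12.23 and 12.15 in the intact mice and 11.73, 11.12 and 11.70 in the preconditioned mice. For alveolar type 2 cells the 12 markers were at -0.21, 0.37 and 0.41 in the intact mice and -0.0053, -0.32 and -0.25 in the preconditioned mice (mean level 10.85 to 11.47 in intact and 10.74 to 11.05 in preconditioned mice), and Sftpc, a surfactant protein gene, lay at 12.95 to 13.40. The 10 mesothelial markers were at 0.13, 0.64 and 0.71 in the intact mice and -0.057, -0.53 and -0.90 in the preconditioned mice (mean level 7.81 to 8.39 in intact and 6.78 to 7.62 in preconditioned mice), an order unlike that of the cilium genes. At an unadjusted p under 0.05, 3 of the 11 type 1, 4 of the 12 type 2 and 9 of the 10 mesothelial markers were lower in preconditioned mice (11.6% of all genes), and 0 were higher. The sperm list had mean deviations of 0.041, 0.0059 and -0.089 in the intact mice and 0.035, -0.011 and 0.018 in the preconditioned mice, and 0 of its 17 genes followed the order. At the low median level of that list (4.62) an order may not show. At an unadjusted limma p under 0.05, 3 of the 17 were higher in preconditioned mice (17.6%, against 7.53% of all genes). In the other direction 1 was lower (5.88%, against 11.6% of all genes). The part of airway secretory cells or of alveolar cells in the spread of the cilium genes was not tested.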

How the data were processed

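Lung RNA of 6 mice was measured on 1 array each. The authors deposited log2 values per probe set from RMA, a method that corrects background, quantile-normalizes and summarizes probes. RMA and limma are named in the submitters' processing notes. Their versions, any filter and the array's genome build were not given in the sources used here. RMA gives arrays a common distribution, so a shift shared by most genes cannot be seen. Arrays carry no read depth, and their number limits the precision.

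Of 41345 probe sets, 23521 carried 1 symbol, 1814 several and 16010 were not listed in the probe annotation. This gave 22180 genes, each with its probe set of highest mean. All were fitted with limma 3.58.1 in R 4.3.3 (lmFit and eBayes, no trend, no covariate, no filter), with Benjamini-Hochberg adjustment over all genes. The fit was tested on simulated data. Values in every mouse are given for the 20 cilium genes with the largest moderated t, the 4 regulators and the 3 of highest level (23 in all), and the other 14 are given by range. Named pathway genes were the up to 4 of largest moderated t in each list, with Trp73 and Myb, and those stated as chosen later. Members and lists were chosen with earlier results of these data known. Alternatives were a filter on level, quantile normalization again, cyclic loess, an intensity trend with robust prior, averaging the probe sets of a gene, a block for the replicate number and leaving out each array. Lists were described by counts and medians, with no test. Promoter sequences are RefSeq's (GRCm38.p6). Python 3.11.15 and matplotlib 3.10.9 were used.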

Additional observations from a re-analysis of the deposited data

How the results depend on the processing

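No cilium gene passed the adjusted threshold under any of the 12 alternatives run. The count of cilium genes at an unadjusted p under 0.05 (1 as reported) was 3 when values were quantile normalized again (16.6% of all genes), 2 with cyclic loess (16.6%) and 0 with the replicate block (16.7%). It was 0 to 11 when 1 array was left out (11 without preconditioned replicate 1, 0 without preconditioned replicate 2), where 11.7% to 24.8% of all genes lay under that p. Their median difference (0.19) lay between 0.17 and 0.28 in the settings that kept all arrays and between -0.072 and 0.42 without 1 array. Over all genes, 21 passed the adjusted threshold as reported, 76 among genes above the median level, 55 with an intensity trend and robust prior, 4 with the replicate block and 2 to 1228 without 1 array, where 1228 is the count without intact replicate 1. The order of mice found in 32 cilium genes was found in 31 with repeated quantile normalization, 32 with cyclic loess, 31 with the mean over probe sets and 30 of the 34 above the median level, alternatives chosen after seeing the data. No sign that replicate numbers pair the mice was found, though such a check cannot exclude pairing. Deviations of mice with the same number correlated across genes at -0.063, -0.31 and -0.065, and 0 of 6 arrays had its best partner under its own number. The number of arrays limits what can be detected.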
